A study of Mus musculus with 20 samples.

Results

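The 10 genes followed here belong to the heat shock protein and chaperone families and were measured by RNA-seq in whole mouse hearts. They are *Hspa1a*, *Hspa1b*, *Hspa8*, *Hspa5*, *Hsph1*, *Hsp90aa1*, *Dnajb1*, *Hspb1*, *Cryab* and *Hspd1*. They were chosen by gene name among the 23420 genes of the deposited count table, and all 10 were among the 13590 genes with at least 1 CPM (read pairs of a gene scaled to the library total) in at least 10 mice. The study asked how iron-deficiency anemia alters the transcriptome of the heart. It compared 10 mice on a control diet with 10 mice on an iron-deficient diet (IDA mice), all wild-type males aged 9 weeks, labelled C57BL/6 (C57BL/6J in the study's methods), that had received their diet for 6 weeks from 3 weeks of age. The labels give the iron of the deficient diet as below 2 ppm in one field and above 2 ppm in another. The study's methods give a range for it that starts at 2 ppm, and name the control diet as iron-adjusted. Polyadenylated RNA was sequenced from pulverized whole heart, so a lower level cannot be separated into fewer cells of a type and less RNA per cell.

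Chaperones bind unfolded proteins and keep them from aggregating while they fold. The HSP70 proteins work with J-domain proteins, which bring substrates and stimulate ATP hydrolysis, and with nucleotide exchange factors such as HSP110, and they pass some clients on to HSP90. When unfolded protein accumulates in the cytosol, heat shock factor 1 binds heat shock elements in the promoters of inducible members, whereas stress in the endoplasmic reticulum acts through other elements, and in cardiac muscle the small heat shock proteins are abundant and associate with the contractile and cytoskeletal filaments.

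The promoters of the inducible members are shown to place the elements through which such genes are known to respond. The 250 bases before the start of each gene were taken from RefSeq (GRCm38.p6) and 7 of the 10 genes had an entry; *Hspa8*, *Hsp90aa1* and *Cryab* did not. Capitals mark matches to the paired heat shock units GAANNTTC or TTCNNGAA, or to the endoplasmic reticulum stress element, ERSE (CCAAT, 9 bases of any kind, then CCACG), in *Hspa5*. The paired units read the same on both strands and were found in 6.69% and 7.17% of 32851 windows of this length, and both strands were searched for the ERSE, which was found in 0.113%. The windows lie at chr17:34972157-34972406 on the minus strand (*Hspa1a*), chr5:135887669-135887918 on the plus strand (*Hspb1*), chr5:149636316-149636565 on the minus strand (*Hsph1*), chr1:55087933-55088182 on the minus strand (*Hspd1*) and chr2:34771840-34772089 on the plus strand (*Hspa5*). Each is written 5′ to 3′ on the strand of its gene.
Hspa1a: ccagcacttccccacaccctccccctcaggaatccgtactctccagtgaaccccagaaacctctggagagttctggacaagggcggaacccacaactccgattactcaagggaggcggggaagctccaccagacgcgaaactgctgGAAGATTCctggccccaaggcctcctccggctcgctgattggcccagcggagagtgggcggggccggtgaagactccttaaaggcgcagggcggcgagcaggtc
Hspb1: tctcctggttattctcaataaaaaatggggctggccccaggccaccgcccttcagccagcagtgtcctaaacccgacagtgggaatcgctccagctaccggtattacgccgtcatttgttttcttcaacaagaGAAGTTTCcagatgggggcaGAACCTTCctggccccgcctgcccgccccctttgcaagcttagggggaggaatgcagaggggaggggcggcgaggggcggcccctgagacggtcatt
Hsph1: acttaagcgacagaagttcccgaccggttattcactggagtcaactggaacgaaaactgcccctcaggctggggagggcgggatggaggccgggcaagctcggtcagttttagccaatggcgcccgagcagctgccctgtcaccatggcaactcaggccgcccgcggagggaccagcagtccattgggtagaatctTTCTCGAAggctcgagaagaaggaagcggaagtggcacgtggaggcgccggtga
Hspd1: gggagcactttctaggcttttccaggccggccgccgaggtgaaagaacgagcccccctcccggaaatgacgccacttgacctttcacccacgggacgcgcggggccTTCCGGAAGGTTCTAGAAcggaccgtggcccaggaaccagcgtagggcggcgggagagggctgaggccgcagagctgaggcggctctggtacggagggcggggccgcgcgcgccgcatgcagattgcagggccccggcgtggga
Hspa5: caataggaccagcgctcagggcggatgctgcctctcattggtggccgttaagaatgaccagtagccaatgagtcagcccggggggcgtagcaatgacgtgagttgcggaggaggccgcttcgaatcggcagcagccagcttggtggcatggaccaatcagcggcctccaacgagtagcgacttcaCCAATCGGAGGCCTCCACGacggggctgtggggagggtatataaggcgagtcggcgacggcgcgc

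The match in *Hspa1a* lay 104 to 97 bases before the start, and *Hspa1b* held the same match at the same distance. *Hspb1* held GAANNTTC at 117 to 110 and again at 97 to 90 bases, *Hsph1* held TTCNNGAA at 54 to 47 bases, and the overlapping units of *Hspd1* spanned 144 to 127 bases and formed runs of 3 alternating GAA and TTC units with 2 bases between them, which 0.47% of windows held. The ERSE of *Hspa5* lay at 65 to 47 bases. No match to these letters was found in the window of *Dnajb1*. The windows of *Hspa1a* and *Hspa1b* were identical at 247 of 250 bases (98.8%).

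Library totals ran from 6682177 to 8960688 counted read pairs, with medians of 7902932 in the control and 6806177 in the IDA group. The diet difference was broad, since 67.5% of the tested genes passed an adjusted p of 0.05 in edgeR's quasi-likelihood test, 35.0% higher and 32.5% lower in IDA hearts. Cardiomyocyte markers summed to 4417 to 5306 CPM in control hearts and 3882 to 5447 CPM in IDA hearts, with 3 of 8 higher and 1 lower. Erythroid markers summed to 146 to 212 CPM in controls and 207 to 684 CPM in IDA hearts, with 4 of 5 tested higher and 1 lower, and the globin genes *Hba-a1* and *Hba-a2* were listed at 0 in all mice. Immediate early genes, which respond to handling of the tissue among other stimuli, had 5 of 8 higher (312 to 459 CPM against 317 to 605 CPM). Leukocyte markers had 6 of 10 higher and 2 lower (452 to 529 CPM against 470 to 637 CPM), while 4 of 8 endothelial markers were higher and 3 lower, 1 of 7 fibroblast markers higher and 1 lower, and 3 of 7 smooth muscle and pericyte markers higher and 2 lower. The part of these in the chaperone values was not tested. With the erythroid markers as a covariate, 54.2% of tested genes were called and, of the members, *Hspb1* alone (log2 fold change 0.35, adjusted p = 0.00366, edgeR). *Hspa8* (0.12, adjusted p = 0.197) and *Cryab* (0.16, adjusted p = 0.107) were not called, though their log2 fold changes were no smaller than without the covariate. Erythroid markers also differ with diet, so the parts of the markers and of diet cannot be told apart.

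The chaperone genes moved little against this background. As counted, *Hspb1*, *Cryab* and *Hspa8* were higher in IDA hearts and none was lower, whereas with a correction for gene length 0 were higher and *Cryab* was lower. The 3 of 10 called compare with 67.5% of all tested genes. The median absolute log2 fold change was 0.09 for the 10 genes and 0.27 for all tested genes. These medians were 0.04 against 0.19 with the gene length correction and 0.06 against 0.24 with library size as a covariate. The gap narrowed to 0.21 against 0.29 among mice with low library numbers and to 0.12 against 0.16 with length and GC content corrected. When p below 0.01 was required from edgeR and from DESeq2 alike, 59.8% of tested genes were called and, of the 10, *Hspb1* alone. The control and IDA mice overlapped for all 10 genes. Among all tested genes 11.3% had no overlap between the groups, a share too low for 10 genes to be set apart by it. Sample labels name separate mice, and each p-value refers to the spread between mice.

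**Figure D1:**
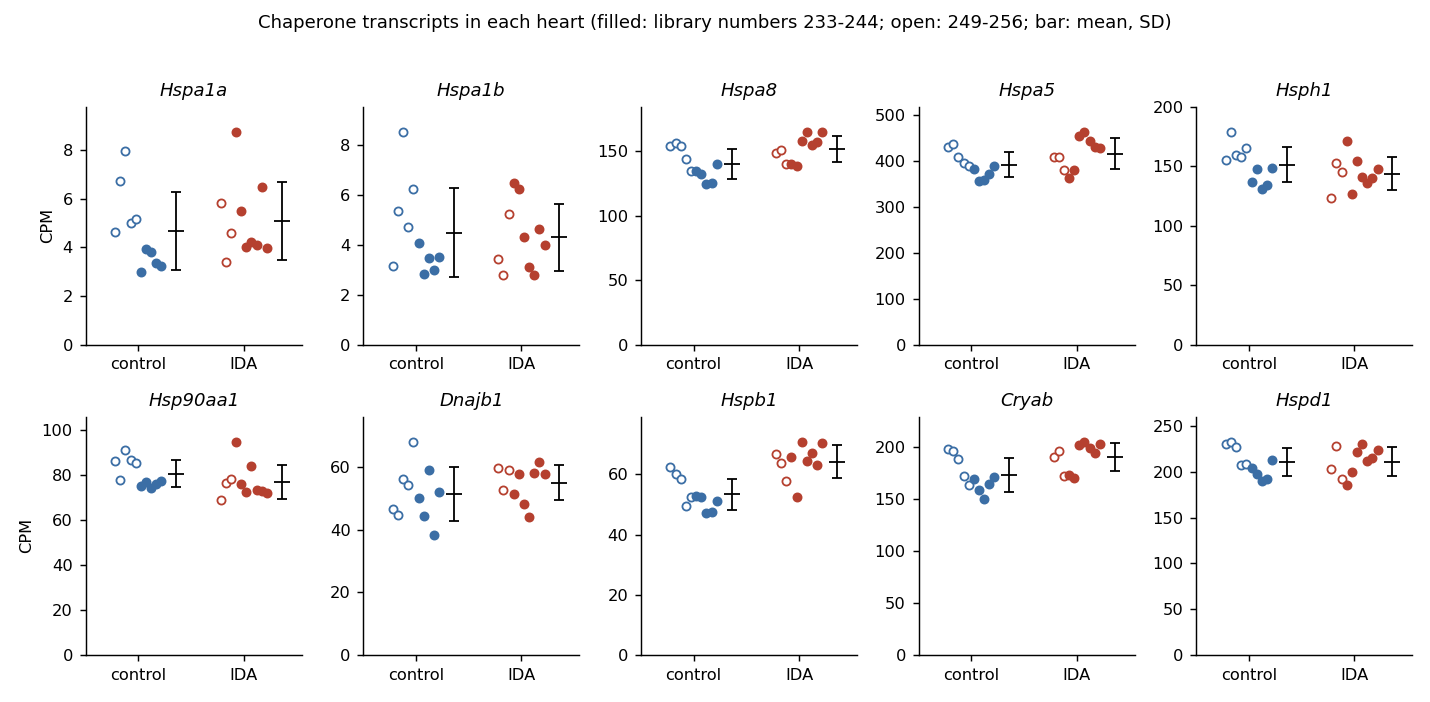
CPM (linear axis from 0) of the 10 chaperone genes in each control and IDA heart, with the mean and SD of the 10 mice per group beside the points; filled and open points are libraries with numbers in the low and the high range. The groups overlap in every panel, and *Hspb1* shows the clearest shift, with 8 of 10 IDA hearts above the highest control before any correction for gene length.

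*Hspa1a* and *Hspa1b*, single-exon genes of the major histocompatibility region on chromosome 17, encode the heat-inducible cytosolic HSP70. *Hspa1a* had a lowest, median and highest level of 2.97, 4.29 and 7.95 CPM in control hearts, and of 3.40, 4.40 and 8.75 CPM in IDA hearts. Its groups overlapped almost entirely, and IDA replicate 4 stood highest. With a standard error of 0.19, the log2 fold change of 0.14 was not past the threshold (95% interval -0.26 to 0.54, adjusted p = 0.530). *Hspa1b* had 2.83, 3.80 and 8.53 CPM in control hearts and 2.79, 4.14 and 6.50 CPM in IDA hearts. These ranges overlapped almost entirely, and the log2 fold change of *Hspa1b* was -0.04 (interval -0.48 to 0.39, standard error 0.21, adjusted p = 0.859). Over all mice, neither gene of the heat-inducible pair passed the test, and each interval includes changes in both directions. *Hspa1a* had a mean of 35.3 read pairs per control and 37.2 per IDA mouse, and the variance of its counts was 4.06 and 3.77 times that of counting error (chi-square over degrees of freedom given the library totals), against 5.36 and 3.09 times for *Hspa1b*. The coefficient of variation among controls was 34.3% and 40.1% for the pair, against 6.98% to 16.6% for the other members. Of the 75-base stretches of *Hspa1a* RNA, 61.7% also occurred in another gene, 52.7% in *Hspa1b*, so the split of reads between them is uncertain.

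*Hspa8* encodes the constitutive cytosolic HSP70, which folds new proteins and uncoats clathrin. It lay at 124, 137 and 156 CPM (lowest, median, highest) in control hearts and at 139, 153 and 165 CPM in IDA hearts. The IDA range sat above the lower controls, with 4 IDA hearts above the highest control. The mean rose from 140.0 ± 11.9 to 151.9 ± 9.89 CPM (SD, n = 10), a log2 fold change of 0.12 (standard error 0.05, adjusted p = 0.0356, edgeR). Leaving out any of 11 of the 20 mice ended this call, the farthest being control replicate 8 (0.08, adjusted p = 0.106). *Hspa8* also shared 68.6% of its 75-base stretches with other genes, 64.3% with *Gm15459*.

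*Hspa5* encodes BiP, the HSP70 of the endoplasmic reticulum and a target of its unfolded protein response. It lay at 355, 388 and 435 CPM in control hearts and at 362, 417 and 462 CPM in IDA hearts. The IDA range covered nearly the whole control range and extended above it in 3 hearts. The log2 fold change of 0.09 (standard error 0.05, interval -0.02 to 0.19) missed the threshold (adjusted p = 0.121), and passed it without IDA replicate 4 (0.11, adjusted p = 0.0473). *Hsph1* encodes HSP110, the exchange factor and disaggregase partner of HSP70. It lay at 131, 152 and 179 CPM in control hearts and at 124, 143 and 171 CPM in IDA hearts. The log2 fold change of -0.07, with a standard error of 0.06 (adjusted p = 0.285), was within the scatter among hearts and was 0.04 after the length correction.

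*Hsp90aa1* encodes the inducible cytosolic HSP90, which matures kinases and steroid receptors. Control hearts had 74.1, 77.4 and 91.1 CPM and IDA hearts 68.8, 74.6 and 94.4 CPM. Most IDA hearts (8 of 10) were below the control mean, while IDA replicate 4 was above every control. With all mice it stood at -0.07 on the log2 scale (standard error 0.05, adjusted p = 0.274), and -0.11 (adjusted p = 0.0499) without IDA replicate 4. *Hsp90aa1* shared 53.1% of its 75-base stretches with other genes, 45.0% with *Gm12346*. *Dnajb1* encodes the J-domain protein that partners HSP70 in disaggregation and in switching off heat shock factor 1. Control hearts had 38.2, 50.9 and 67.9 CPM and IDA hearts 44.1, 57.6 and 61.7 CPM. The IDA range lay inside the control range and the log2 fold change was 0.10 (interval -0.08 to 0.28, standard error 0.08, adjusted p = 0.300).

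*Hspb1* encodes HSP27 (HSP25 in mouse), a small heat shock protein of actin filaments. It had 47.1, 52.5 and 62.4 CPM in control hearts and 52.6, 65.1 and 70.7 CPM in IDA hearts. Of the IDA hearts, 9 of 10 were above the control mean and 8 of 10 above every control. The mean rose from 53.4 ± 5.24 to 64.3 ± 5.54 CPM (SD, n = 10), 1.20-fold (log2 fold change 0.27, SE 0.06, adjusted p = 0.0004 by edgeR), but stood at -0.04 with the length correction and was called lower with a correction for length and GC content together (-0.32, adjusted p = 6.1e-05). *Cryab* encodes αB-crystallin, which binds desmin and titin. It had 149, 169.7 and 198 CPM in control hearts and 169.8, 195 and 204 CPM in IDA hearts. Among IDA hearts 4 were above every control, and the rest were within the control range. The mean rose from 173 ± 16.1 to 190.1 ± 13.6 CPM (SD, n = 10), with a log2 fold change of 0.14 (standard error 0.05, adjusted p = 0.0226 by edgeR), which turned to -0.12 with the length correction and missed the threshold without control replicate 8 (0.10, adjusted p = 0.0652). *Hspb1* shared 47.3% of its 75-base stretches with the pseudogene *Hsp25-ps1*, and *Cryab* shared 17.1% with its neighbour *Hspb2*.

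*Hspd1* encodes HSP60, the mitochondrial chaperonin that folds imported matrix proteins. It had 190.2, 208 and 232 CPM in control hearts and 185, 213 and 230.0 CPM in IDA hearts. The groups covered the same range, and a log2 fold change of 0.01 was fitted (standard error 0.05, interval -0.09 to 0.11, adjusted p = 0.908). *Hspd1* shared 33.7% of its 75-base stretches with other genes, most of them in *Hspd1-ps3*. No 75-base stretch of *Hspa5*, *Hsph1* or *Dnajb1* occurred in another gene, and the exons of none of the 10 genes overlapped those of another gene.

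Fold changes across the transcriptome followed gene length, and 2 of the 3 chaperone genes that rose, *Hspb1* and *Cryab*, were the shortest of the 10. The tested genes were split by exonic length into 10 groups of near-equal size. In the shortest group (60 to 1171 bp), which holds *Hspb1* (903 bp), the median log2 fold change was 0.34. In the next (1172 to 1641 bp), which holds *Cryab* (1185 bp), it was 0.27, and in the longest (from 6330 bp) it was -0.53. *Hspa8*, *Dnajb1* and *Hspd1* fell in the fourth group (median 0.12), *Hspa1a*, *Hspa1b*, *Hspa5* and *Hsp90aa1* in the fifth (median 0.06), and *Hsph1* (3478 bp) in the seventh (median -0.12). *Hspb1* and *Cryab* therefore rose less than the median gene of their length. After a correction that removes any trend on length, technical or biological, 55.0% of tested genes were called and 1 of the 10 members. This was *Cryab*, now lower (-0.12, standard error 0.05, adjusted p = 0.0431), while *Hspb1* stood at -0.04 (adjusted p = 0.491) and *Hspa8* at 0.02 (adjusted p = 0.738). With length and GC content corrected together, 47.4% of tested genes and 4 members were called. *Hspb1* (-0.32) and *Cryab* (-0.25, adjusted p = 0.00074) were lower, and *Hspa5* (0.19, adjusted p = 0.00715) and *Hspa8* (0.13, adjusted p = 0.0418) were higher.

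**Figure D2:**
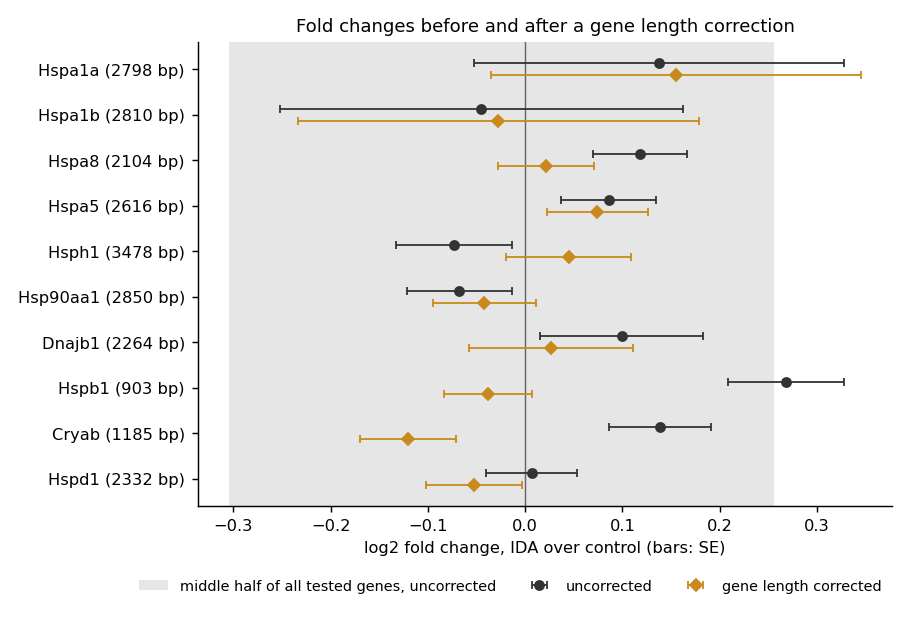
Log2 fold change (IDA over control, x axis) of the 10 chaperone genes, each named with its exonic length, from edgeR without correction (circles) and with the gene length correction (diamonds); bars are SE and the grey band spans the quartiles of all tested genes (-0.30 to 0.26). The correction moves *Hspb1* from 0.27 to -0.04 and *Cryab* from 0.14 to -0.12 and hardly moves *Hspa1a*, *Hspa1b* or *Hspa5*.

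Read pairs on several members varied less between mice than the library totals did. The authors removed pairs that aligned to identical positions as PCR duplicates before counting, and the most densely covered gene held 2.06 to 2.39 pairs per exonic base in each mouse. *Hspa5* held 1.14 pairs per base in both groups, *Cryab* 1.11 in control and 1.15 in IDA hearts, and *Hspa1a* 0.013 in both. *Cryab* was counted 1287 to 1362 times per control mouse and 1310 to 1434 times per IDA mouse. Library totals varied 1.32-fold among controls and 1.17-fold among IDA mice. Counts varied 1.06-fold and 1.09-fold in these groups for *Cryab*, and 1.1-fold in both for *Hspa8*, *Hspd1* and *Hspa5*. The variance of *Cryab* counts over their mean was 0.30 in controls and 0.87 in IDA mice, where random draws from libraries of equal size would give 1. In controls this quotient was 0.84 for *Hspb1*, 0.95 for *Hspa8*, 2.19 for *Hspd1* and 5.0 for *Hspa5*, and it reached 18.9 for *Dnajb1*. Pairs per base were 0.45 for *Hspb1*, 0.51 for *Hspa8* and 0.69 for *Hspd1*. The mean counts of these genes differ, so the quotient was not set against pairs per base across genes. On the log2 scale, the slope of counts on library total was 0.03 in controls and 0.18 in IDA mice for *Cryab*, 0.08 and 0.21 for *Hspb1*, 0.17 and 0.34 for *Hspa8*, and 0.33 and 0.19 for *Hspa5*. The median slope over 5679 genes with at least 300 pairs in every mouse was 0.89 in controls (quartiles 0.58 and 1.26) and 0.92 in IDA mice (quartiles 0.51 and 1.4). None of the 20 relations of a member's counts to the library total within a diet group passed the adjustment (permutation tests, lowest adjusted p = 0.086). With library size as a covariate, 58.3% of tested genes were called. Library size also differs with diet, so their parts cannot be told apart. The log2 fold change was then -0.02 for *Cryab* (adjusted p = 0.553) and -0.02 for *Hspa8* (adjusted p = 0.643), while *Hspb1* stayed called at 0.12 (adjusted p = 0.0309) and *Hspd1* was lower (-0.12, adjusted p = 0.00343). The part of duplicate removal in these counts was not tested.

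**Figure D3:**
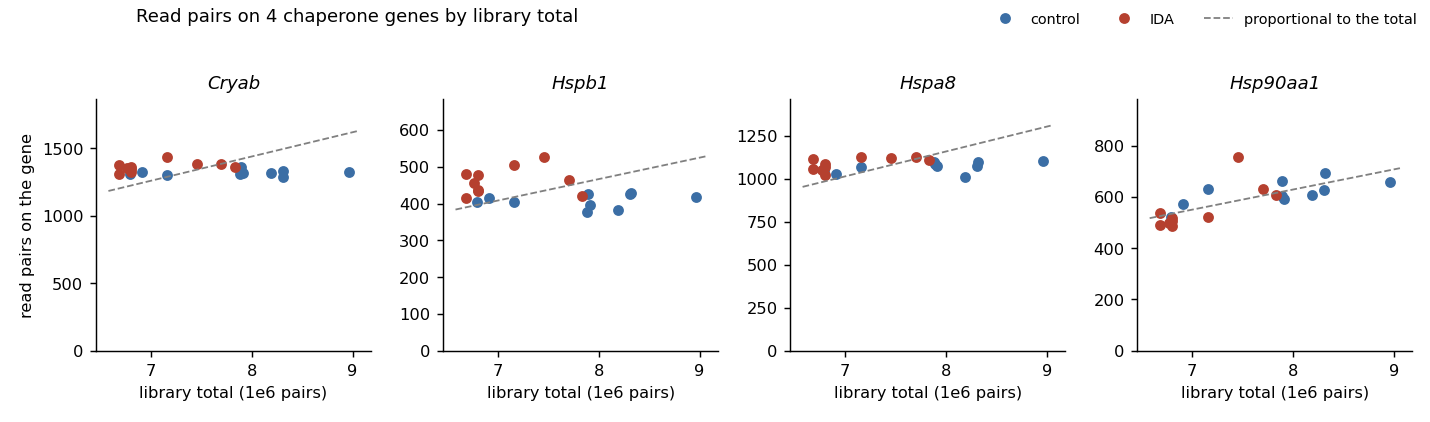
Read pairs counted on *Cryab*, *Hspb1*, *Hspa8* and *Hsp90aa1* (y axis, from 0) against the library total in counted pairs (x axis) for the 10 control and 10 IDA mice; the dashed line is proportional to the total. Counts of *Cryab* lie between 1287 and 1434 at every total. Those of *Hsp90aa1* span 487 to 755, with a slope on the total (log2 scale) of 0.67 in controls and 1.81 in IDA mice.

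The libraries carry numbers in 2 ranges with a gap between them, a low range (5 control and 7 IDA mice) and a high range (5 control and 3 IDA mice), and nothing in the sources used here says what the numbers stand for. In controls, all 10 members had a higher mean CPM in the high range, inducible or not, and 4 of them did not overlap between the ranges. *Hspa1a* was 4.65 to 7.95 CPM there and 2.97 to 3.93 CPM in the low range, with no overlap. *Hsph1* was 156 to 179 CPM in the high and 131 to 148 CPM in the low range, *Hsp90aa1* 77.6 to 91.1 CPM against 74.1 to 77.1 CPM, and *Hspa5* 389 to 435 CPM against 355 to 388 CPM. *Hspa1b*, the other gene of the inducible pair, did overlap (3.15 to 8.53 CPM against 2.83 to 4.09 CPM). Whether all tested genes differ as often between the control ranges was not tested, so this is not shown to be particular to chaperones. Most control libraries of the high range also had smaller totals than every control library of the low range. In IDA mice the ranges of *Hspa1a*, *Hsph1*, *Hsp90aa1* and *Hspa5* overlapped between low and high numbers. *Hspa1a* was 3.98 to 8.75 CPM with low and 3.40 to 5.82 CPM with high numbers.

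The diet comparison gave other calls within each range than over all mice. In the low range, every control library had a larger total than every IDA library. Diet and library size were therefore not separated there, and the part of library size in the calls was not tested. In the high range, the library totals of the 2 diets overlapped. Among low numbers, 58.9% of tested genes and 5 members were called, all higher: *Hspa1a* (log2 fold change 0.61, adjusted p = 0.0242), *Hspb1* (0.37, adjusted p = 0.000611), *Cryab* (0.24, adjusted p = 0.00258), *Hspa8* (0.23, adjusted p = 0.00267) and *Hspa5* (0.19, adjusted p = 0.0168). Among high numbers, 43.5% of tested genes and 2 members were called, both lower, namely *Hsph1* (-0.23, adjusted p = 0.039) and *Hsp90aa1* (-0.21, adjusted p = 0.0464). The difference between the ranges was 0.96 for *Hspa1a* and 0.97 for *Hspa1b*, and 0.07 to 0.28 for the other members, always in the same direction. The share of all tested genes that differ in this direction was not computed, so this is not shown to be particular to chaperones. No member passed the test of the difference between the ranges (adjusted p from 0.593 to 0.995), which 28 genes, or 0.206% of those tested, did pass. With the range as a covariate, 67.8% of tested genes were called, and of the members 3 were higher and 0 lower.

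**Figure D4:**
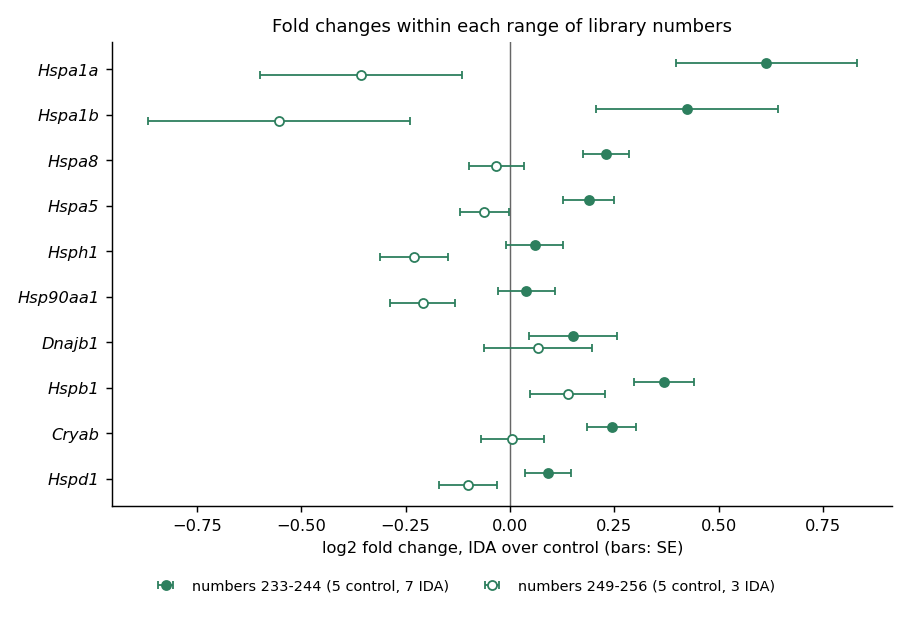
Log2 fold change (IDA over control, x axis; bars are SE) of the 10 chaperone genes among mice with library numbers in the low (filled) and the high range (open), from edgeR. Every filled point lies to the right of its open point, *Hspa1a* at 0.61 against -0.36, and the error bars are widest for *Hspa1a* and *Hspa1b*.

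Ratios within a mouse set partners side by side, and the scaling factor of a library cancels in them. They can still vary with the library total, which differs with diet, and its part in the ratios was not tested. *Hspd1* and *Hspe1* encode the chaperonin and its lid, HSP10, and are neighbouring genes transcribed from a shared promoter. Their log2 ratio was 2.29 ± 0.07 in control and 2.08 ± 0.11 in IDA hearts (SD, n = 10), lower by 0.22 on the log2 scale in IDA hearts, and all 10 IDA mice were below the control mean (two-sided permutation test, adjusted p = 0.00044 over 4 ratios). Exonic length is 2332 bp for *Hspd1* and 768 bp for *Hspe1*, and after the length correction the difference was 0.06 (adjusted p = 0.171, permutation test). Within the low and the high library numbers it was -0.20 and -0.26 (adjusted p = 0.0101 and 0.143, exact permutation tests). With 5 against 3 mice, the smallest two-sided exact p is 0.0357, or 0.143 adjusted when 1 of the 4 ratios alone reaches it, so a ratio that was extreme alone could not pass within the high range. *Hsp90aa1* over the constitutive *Hsp90ab1*, genes of similar length (2850 and 2507 bp), was -2.58 ± 0.11 in control and -2.76 ± 0.19 in IDA hearts. In all, 8 IDA mice were below the control mean, and the difference of -0.18 had an adjusted p of 0.0423 (permutation test). It was -0.19 within the low and -0.18 within the high library numbers, where neither passed the test (adjusted p = 0.111 and 0.333, exact permutation tests), and -0.13 after the length correction (adjusted p = 0.171).

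*Hspa5* over *Hsp90b1*, which encodes GRP94, kept a narrow range, from 0.08 to 0.16 in control and from 0.10 to 0.19 in IDA hearts on the log2 scale. The difference of 0.03 had an adjusted p of 0.0423 (permutation test), was 0.05 within the low and -0.0027 within the high library numbers, and did not pass after the length correction (0.0047, adjusted p = 0.795). The inducible over the constitutive cytosolic HSP70, *Hspa1a* and *Hspa1b* summed over *Hspa8*, spanned -4.32 to -3.21 in control and -4.55 to -3.18 in IDA hearts. Its difference of -0.07 was within the spread between mice (adjusted p = 0.722, permutation test), and was 0.22 within the low and -0.40 within the high library numbers.

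**Figure D5:**
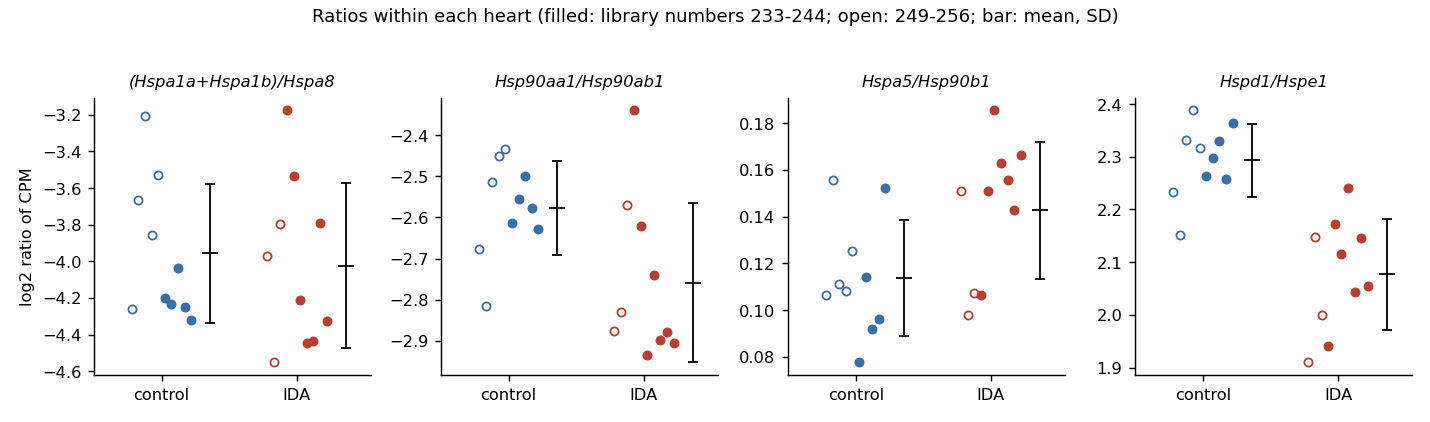
Log2 ratios of CPM (y axes, which do not start at 0) of 4 pairs of chaperone genes in each control and IDA heart, with the mean and SD of 10 mice per group; filled and open points are low and high library numbers. The *Hspd1*/*Hspe1* ratio is lower in IDA hearts (means 2.29 and 2.08), and the inducible HSP70 over *Hspa8* overlaps throughout.

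Per kilobase of exon, *Hspa5* (149.5 ± 10.4 CPM per kb, SD, n = 10) and *Cryab* (146 ± 13.6) were the most abundant members in control hearts, and their ranges overlapped. *Hspd1* followed at 90.2 ± 6.57, clear of both neighbours in the order. *Hspa8* (66.6 ± 5.64) and *Hspb1* (59.2 ± 5.80) overlapped, *Hsph1* stood alone at 43.5 ± 4.30, and *Hsp90aa1* (28.2 ± 2.12) and *Dnajb1* (22.7 ± 3.77) overlapped. The inducible pair was far below the rest, at 1.67 ± 0.57 for *Hspa1a* and 1.60 ± 0.64 for *Hspa1b*. Removal of duplicates lowers the value of densely covered genes, and its part in this order was not tested. The members also differ in the share of 75-base stretches found in other genes. It was 61.7% for *Hspa1a*, 55.8% for *Hspa1b*, 68.6% for *Hspa8* and 0% for *Hspa5*, *Hsph1* and *Dnajb1*, and its part was not tested either.

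*Hsph1*, which has no near-identical copy, was used to ask whether members varied together from mouse to mouse. In controls its levels formed separate clusters by library number with 5 mice each, so no correlation is given there. Among the 10 IDA mice, none of 9 relations passed the adjustment over the 18 relations computed (permutation tests, lowest adjusted p = 0.140 for Pearson's r). The strongest was with *Hsp90aa1* (r = 0.63, Spearman's rho 0.38), and when the 2 most extreme mice for *Hsph1* were left out it became -0.17. Over all 20 mice, after removal of each diet group's mean, the genes whose log2 CPM was most like that of *Hsph1* were *Ptgds* (r = 0.81), *Popdc3* (0.81), *Nars* (0.80), *Cdv3* (0.75) and *Acta1* (0.74). Only the diet means were removed, so these r values also carry the control clusters by library number for which no correlation is given above. The part of the library number ranges in them was not tested. Of the 5 genes, *Ptgds* (log2 fold change 0.36, adjusted p = 4.9e-05) and *Popdc3* (0.25, adjusted p = 3.57e-05) were higher in IDA hearts, while *Nars* (0.06), *Cdv3* (0.08) and *Acta1* (0.11) did not pass the test.

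The wider chaperone network was described from 9 lists with 140 tested genes, the 10 members included. In IDA hearts 68 were higher and 28 lower (68.6%, near the 67.5% of all tested genes), and the median log2 fold change was 0.11 against 0.02. After the length correction, 37 were higher and 29 lower, with a median of 0.04 against 0.04 for all tested genes. Among 15 HSP70 and HSP110 genes, 2 were higher and 3 lower (median -0.00039). *Hspa12b* rose from 110.9 to 138 CPM (0.31), whereas *Hspa12a* fell from 143.5 to 99.7 CPM (-0.53) with no overlap between the groups, and *Hspa13*, of the endoplasmic reticulum, fell from 56.1 to 40.5 CPM (-0.47). All 3 kept their direction and their call after the length correction (0.35, -0.17 and -0.27), and *Hspa13* lost its call when GC content was corrected too (-0.05, adjusted p = 0.362). *Hspa9*, the mitochondrial HSP70 that drives import, had 492 CPM in control and 510 CPM in IDA hearts (0.05, adjusted p = 0.326).

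Of 4 HSP90 genes, 1 was higher (median 0.08). This was *Trap1*, the mitochondrial HSP90 (0.12, adjusted p = 0.0189), while *Hsp90ab1* (0.11, adjusted p = 0.0611) and *Hsp90b1* (0.06, adjusted p = 0.258) did not pass. The call of *Trap1* was lost after the length correction (0.05, adjusted p = 0.324). Of 7 small heat shock protein genes, 5 were higher and 0 lower as counted (median 0.14), and 0 higher and 2 lower after the length correction (median -0.02). *Hspb3* rose from 26.3 ± 2.49 to 34.4 ± 5.67 CPM (0.39) and *Hspb2* from 86.2 ± 6.18 to 108 ± 8.33 CPM (0.33), with all 10 IDA mice above the control mean for each, and after the length correction they stood at 0.05 and 0.01. With a median exonic length of 1185 bp, this was the shortest of the lists.

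Among 16 chaperonin and prefoldin genes, which comprise the cytosolic folding machinery of actin and tubulin and the mitochondrial pair *Hspd1* and *Hspe1*, 11 were higher and 1 lower (median 0.20). *H2-Ke2*, a prefoldin subunit, rose from 44.6 ± 4.20 to 60.8 ± 4.80 CPM (0.45) with no overlap, *Pfdn1* from 69.2 to 87.6 CPM (0.34) and *Hspe1* from 42.8 to 49.8 CPM (0.22). After the length correction *Pfdn1* lost its call (0.07, adjusted p = 0.143) and *Hspe1* was called lower (-0.11, adjusted p = 0.0182). *Cct6a*, a subunit of the cytosolic chaperonin, fell from 92.8 ± 5.49 to 86.0 ± 5.20 CPM (-0.11, adjusted p = 0.024). Of the list, 4 were then higher and 4 lower, and *Cct6a* was again called lower (-0.35).

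Of 26 cytosolic co-chaperones, 15 were higher and 3 lower (median 0.13). *Hspbp1*, an HSP70 exchange factor, rose from 60.7 ± 7.66 to 91.8 ± 9.39 CPM (0.60) with no overlap, and *Unc45a*, a myosin chaperone, from 50.3 to 68.1 CPM (0.44). *Bag3*, which guides HSP70 clients to autophagy in muscle, rose slightly (0.09, adjusted p = 0.0321), as did *Stip1*, which links HSP70 and HSP90 (0.09, adjusted p = 0.038). *Bag4* fell from 23.8 to 17.4 CPM (-0.45) and *Chordc1* from 90.6 to 79.8 CPM (-0.18). After the length correction, *Hspbp1* (0.39), *Unc45a* (0.53) and *Chordc1* (-0.26) were still called, the last not when GC content was corrected too (0.02, adjusted p = 0.674), and 8 of the list were higher and 5 lower.

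Among 38 J-domain proteins, 16 were higher and 12 lower (median 0.07). *Dnajc17* rose from 11.6 to 17.0 CPM (0.56) and *Hscb*, of iron-sulfur cluster assembly, from 21.3 to 27.9 CPM (0.40), with all 10 IDA mice above the control mean for each. *Dnajc13*, of endosomal sorting, fell from 148.7 to 99.7 CPM (-0.58) and *Dnajc16* from 92.8 to 64.0 CPM (-0.54). *Dnajc13* has 7697 bp of exon, and after the length correction it was at -0.08 (adjusted p = 0.0608), *Hscb* at 0.07 (adjusted p = 0.329), *Dnajc16* at -0.37 and *Dnajc17* at 0.27, the last of which lost its call when GC content was corrected too (0.14, adjusted p = 0.117).

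Of 26 genes of folding and stress in the endoplasmic reticulum, 10 were higher and 10 lower (median 0.06). *Ern1*, which encodes the stress sensor IRE1, fell from 26.1 ± 6.49 to 11.8 ± 3.83 CPM (-1.16, adjusted p = 3.29e-06), and *Sel1l*, of the degradation complex, fell from 213.3 ± 21.6 to 132 ± 18.3 CPM (-0.70, adjusted p = 2.07e-07) with no overlap. *Sil1*, the exchange factor of BiP, rose from 47.5 to 61.7 CPM (0.38) and *Sdf2l1* from 11.8 to 15.1 CPM (0.36). *Ern1* (-0.98), *Sel1l* (-0.30) and *Sil1* (0.21) kept their calls after the length correction, and *Sdf2l1* did not (0.08, adjusted p = 0.472). With GC content corrected too, *Sil1* lost its call (0.06, adjusted p = 0.297).

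Among 17 mitochondrial chaperones and proteases, 10 were higher and 1 lower (median 0.12). *Clpp*, the matrix protease, rose from 81.8 to 102.0 CPM (0.32), and *Yme1l1*, an inner membrane protease, fell from 182.8 to 159 CPM (-0.20). Both calls were lost after the length correction (0.06 and 0.05). Of 5 heat shock factors and their binding proteins, 3 were higher and 1 lower (median 0.23). *Hsf1*, the factor that induces the heat shock genes, rose from 96.5 ± 5.53 to 108.8 ± 8.05 CPM (0.17, adjusted p = 0.00142), *Hsbp1* from 118.6 to 139 CPM (0.23) and *Hsf4* from 10.5 to 15.0 CPM (0.51). *Hsf2* fell from 43.4 ± 2.97 to 35.7 ± 4.03 CPM (-0.28, adjusted p = 0.000394). After the length correction *Hsf2* (-0.29) and *Hsf4* (0.34) were still called, and *Hsf1* was not (0.06, adjusted p = 0.222). With GC content corrected too, neither *Hsf2* (-0.01, adjusted p = 0.876) nor *Hsf4* (0.06, adjusted p = 0.629) was called.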

How the data were processed

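Whole-heart RNA of 10 control and 10 IDA mice was poly(A)-selected and sequenced as 75-base pairs. The authors mapped reads with STAR (mm10), discarded PCR duplicates (samtools), assigned pairs to exons by featureCounts (1.4.5-p1, without strand), and deposited raw counts with exonic lengths. Removal of duplicates limits the counts of densely covered genes. The study left out a mouse of each group because of contamination of the sample. Its text does not name these mice, so all 20 were kept, and both groups here include the mouse the authors left out.

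Genes that reached 1 CPM in 10 or more mice entered the tests in R 4.3.3 with edgeR 4.0.16 (TMM, quasi-likelihood test, Benjamini-Hochberg adjusted p below 0.05 over 13590 genes, diet only), the source of every adjusted p unless a permutation test is named. CPM are TMM-scaled, and intervals are 95%. DESeq2 1.42.0 was an alternative. Ratios used log2 CPM (prior count 2) and permutation tests with 100000 resamples (scipy 1.17.1). The length correction entered a loess curve (span 0.5) of each mouse's deviations on log2 exonic length as offsets. GC content was known for 94.0% of tested genes. Steps were tested on simulated data. Alternatives for the library number ranges, and the replicate block with the length correction, were chosen after seeing the data.

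Members, gene lists and marker lists were chosen with earlier results of these data known. Beyond the members, genes named are the 2 highest and 2 lowest called non-members of each list, 9 partners set by name (*Hsf1*, *Hsf2*, *Hsp90ab1*, *Hsp90b1*, *Hspe1*, *Hspa9*, *Bag3*, *Stip1* and *Hspb2*) and the 5 genes most like *Hsph1*.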

Additional observations from a re-analysis of the deposited data

How the results depend on the processing

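Of the 10 members, 3 were called higher and 0 lower. The count higher was 3 with DESeq2, with RLE factors, without a filter on low counts and with the library number range as a covariate, and 2 with the gene length and GC correction, under which 2 were lower. It was 0 with the gene length correction (1 lower), 1 with p below 0.01 in both packages, 1 with an erythroid marker covariate and 1 with library size as a covariate (1 lower), and 5 within the low and 0 within the high library numbers (2 lower). Without 1 mouse each, 1 to 4 were higher and 0 to 1 lower; 1 was higher without control replicate 8, and 1 lower without IDA replicate 4. Over all lists, 37 genes were higher with the gene length correction. The cause of these shifts was not tested. The counts of *Hspa1a* and *Hspa1b* were the lowest of the members (means of 31.6 to 37.2 pairs per mouse).

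Same-numbered mice did not deviate together (correlations from -0.28 to 0.26), which shows no pairing by number but cannot exclude one in the design. With a replicate block 2 members were higher and 0 lower, and the calls of *Hspa8* (adjusted p = 0.0687), *Bag3* (0.082), *Cct6a* (0.0534) and *Stip1* (0.0639) were lost. With a replicate block with gene length correction 0 members were called. By edgeR, log2 fold changes took the opposite sign as follows. With the gene length correction these were *Hsph1* (0.045), *Hspb1* (-0.038), *Cryab* (-0.12), *Hspd1* (-0.052), *Acta1* (-0.087), *Hsbp1* (-0.031), *Hspe1* (-0.11) and *Yme1l1* (0.047), and in the block with that correction *Hsph1* (0.045), *Hspb1* (-0.039), *Cryab* (-0.12) and *Hspd1* (-0.053). With the gene length and GC correction these were *Hspa1a* (-0.072), *Hsp90aa1* (0.11), *Hsph1* (0.12), *Dnajb1* (-0.058), *Hspb1* (-0.32), *Cryab* (-0.25), *Acta1* (-0.27), *Bag3* (-0.089), *Chordc1* (0.022), *Clpp* (-0.14), *Dnajc13* (0.036), *Hsf1* (-0.043), *Hspb2* (-0.23), *Ptgds* (-0.14), *Sdf2l1* (-0.10), *Stip1* (-0.044), *Trap1* (-0.013) and *Yme1l1* (0.30), of which *Hspb1*, *Cryab*, *Acta1*, *Clpp*, *Hspb2* and *Yme1l1* were called in the new direction. Calls lost under it with the sign kept were *Bag4* (-0.035), *Dnajc17* (0.14), *Hsbp1* (0.032), *Hscb* (0.048), *Hsf2* (-0.013), *Hsf4* (0.060), *Hspa13* (-0.053), *Hspb3* (0.0051), *Hspe1* (0.0035), *Pfdn1* (0.033), *Popdc3* (0.092) and *Sil1* (0.055). With the erythroid covariate the signs turned for *Hspa1a* (-0.18) and *Hspd1* (-0.014). With library size as a covariate they turned for *Hspa8* (-0.016), *Hspa5* (-0.040), *Cryab* (-0.016), *Hspd1* (-0.12), *Acta1* (-0.016), *Hsp90ab1* (-0.040), *Hsp90b1* (-0.056), *Hspa9* (-0.075) and *Stip1* (-0.0027). Within the high library numbers they turned for *Hspa1a* (-0.36), *Hspa8* (-0.032), *Hspa5* (-0.061) and *Hspd1* (-0.10), within the low numbers *Hspa1b* (0.42), *Hsp90aa1* (0.039) and *Hsph1* (0.059), and with the range as a covariate *Hspa1b* (0.040). *Hspd1* was -0.00040 with DESeq2 and -0.00050 with RLE factors. Without 1 mouse each, *Hspa1b* ran from -0.13 to 0.10 and *Hspd1* from -0.023 to 0.026.

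The ratios are log2 differences with permutation tests. *Hsp90aa1*/*Hsp90ab1* was -0.13 with the gene length correction, -0.19 within the low and -0.18 within the high library numbers, none past the threshold, and without 1 mouse each it ran from -0.23 to -0.16, with 12 of 20 mice ending the call. *Hspa5*/*Hsp90b1* was 0.0047 with the gene length correction, 0.029 with sign flips over same-numbered mice (the replicate block, adjusted p = 0.099 by exact permutation) and -0.0027 within the high numbers, and without 1 mouse each it ran from 0.024 to 0.034, with 14 of 20 ending the call. *Hspd1*/*Hspe1* was 0.058 with the gene length correction and -0.26 within the high numbers (adjusted p = 0.143, exact permutation test). The inducible HSP70 over *Hspa8* was 0.049 with the gene length correction and 0.22 within the low numbers, and ran from -0.16 to 0.016 without 1 mouse each, the one above 0 being without control replicate 3.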
